A study of Mus musculus with 6 samples.

Results

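The core circadian clock was described through 10 genes, taken by symbol from a fixed list of 3 activators (Arntl, Clock and Npas2) and 7 repressors (Per1, Per2, Per3, Cry1, Cry2, Nr1d1 and Nr1d2), among 23808 genes measured. All 10 were found in the table. Expression had been measured by mRNA sequencing in hearts of wild-type female mice, fed normal chow (NC) or a high-fat diet (HFD) from week 4 to week 12 of age, with 3 libraries per diet (NC 1 to NC 3 and HFD 1 to HFD 3). Genotype, sex, tissue and age range were shared by all 6 libraries, and diet was the only labelled difference. The chamber of the heart, the time of day at which hearts were taken, the composition of the diets and whether a library held 1 animal or several are unstated in the labels, so p-values measure the spread between libraries, which may be technical. Values are FPKM, fragments scaled by gene length and by library size, so levels of different genes are compared per length. Where 3 values follow each other they are those of libraries 1, 2 and 3.

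The clock is a transcriptional feedback loop that runs in nearly every cell of the body, cardiomyocytes included. A dimer of BMAL1 (encoded by Arntl) with CLOCK or NPAS2 binds E-boxes and drives the Per, Cry and Nr1d genes. PER and CRY proteins then enter the nucleus and inhibit that dimer, while the nuclear receptors REV-ERB alpha (Nr1d1) and REV-ERB beta (Nr1d2) repress Arntl and Npas2 through elements that the ROR receptors activate. In peripheral tissues Arntl and Npas2 transcripts therefore peak at a time of day roughly opposite to that of the Per and Nr1d transcripts, and in the heart the clock is known to set daily rhythms of metabolism and electrical properties.

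Matches to the kinds of promoter element that link the 2 arms of the loop are shown first. Binding or regulation at these matches was not measured. RefSeq promoter windows (build GRCm38.p6, 250 bases before to 50 after each start) were matched by symbol for 9 of the 10 genes, in 13 windows, and Per2 was not searched. Each stretch is written 5′ to 3′ on the strand of the gene, with motif letters in capitals. They mark the E-box CACGTG, its variant the E-prime box CACGTT (read as AACGTG on the other strand), the D-box TTATGTAA, which binds the output factors DBP, TEF and HLF, and the ROR response element TAGGTCA.
Cry1 (chr10:85185065-85185184, minus strand): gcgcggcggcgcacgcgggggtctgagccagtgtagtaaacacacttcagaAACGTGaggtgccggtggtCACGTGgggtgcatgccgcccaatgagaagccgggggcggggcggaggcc
Per1 (chr11:69098729-69098848, plus strand): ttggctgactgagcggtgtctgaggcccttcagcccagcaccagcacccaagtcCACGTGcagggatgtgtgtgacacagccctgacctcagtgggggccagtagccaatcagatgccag
Cry2 (chr2:92434186-92434275, minus strand): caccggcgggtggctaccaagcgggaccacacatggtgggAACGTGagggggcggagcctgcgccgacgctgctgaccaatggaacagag
Nr1d1 (chr11:98775378-98775467, minus strand): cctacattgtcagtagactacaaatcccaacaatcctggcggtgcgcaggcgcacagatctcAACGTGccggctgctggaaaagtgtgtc
Per3 (chr4:151044776-151044895, minus strand): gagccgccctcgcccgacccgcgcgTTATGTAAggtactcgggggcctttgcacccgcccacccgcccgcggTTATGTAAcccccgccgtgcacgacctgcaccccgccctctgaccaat
Arntl (chr7:113207531-113207560, plus strand): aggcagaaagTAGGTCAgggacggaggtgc

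Among the 9 genes the E-box was present in 2 (Cry1, 60 bases before the start, and Per1, 166 bases before it), and 7.15% of all 32851 windows held it. Members are counted here per gene, and the 9 genes have 13 windows, so their counts and the shares of windows are in different units. The E-prime box was present in 3 (Cry1 at 79, Cry2 at 166 and Nr1d1 at 28 bases before the start), against 4.68% of all windows. Per3 alone of the 9 held the D-box, at 205 and 158 bases before the start, a motif present in 0.938% of windows. The ROR response element was present in Arntl alone, beginning at base 31 after the start, against 2.61% of windows. Both strands were searched, and no motif searched contains another. GGGTCA, a shorter sequence searched as a REV-ERB element (13.7% of windows), was found in none of the 13 windows. Nor was the cyclic AMP response element (TGACGTCA, 1.79%). REV-ERB also acts through the elements that ROR receptors activate, so the Arntl match to TAGGTCA is a possible REV-ERB site too. The absence of GGGTCA does not show that REV-ERB sites were lacking. These matches are descriptions of letters in short windows.

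All 3 activators had lower means on HFD and 6 of the 7 repressors had higher ones, but no gene passed the test over all genes. HFD values lay wholly above NC values in 4 of the 10 genes (Per2, Per3, Cry1 and Nr1d2), where 2.97% of the 22234 genes with a value above 0 did so, and wholly below in 2 (Arntl and Npas2), where 3.88% of all genes did so. In Clock, Per1, Cry2 and Nr1d1 the diets overlapped. Of the 10 genes, 8 averaged 1 FPKM or more and entered the limma test, and Arntl and Npas2 did not. With Benjamini-Hochberg adjustment over 11456 genes 0 of these 8 passed an adjusted p of 0.05 (0% of all tested genes did), and at an unadjusted p of 0.05 the 4 separated repressors were higher, where 1.32% of tested genes were. The median log2 fold change of the 8 was 0.52, against −0.02 over all tested genes, with 6 of the 8 above 0 (46.9% of tested genes were) and 2 below (53.1% were). None of the 8 was lower at an unadjusted p of 0.05, where 2.3% of tested genes were. Among tested genes alone, 3.25% had HFD values wholly above NC values, as 4 of the 8 did, and 4.88% wholly below, as 0 of the 8 did. Among all genes with a value above 0, 2.11% were lower at an unadjusted p of 0.05 by limma without a filter, as Arntl and Npas2 were.

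**Figure D1:**
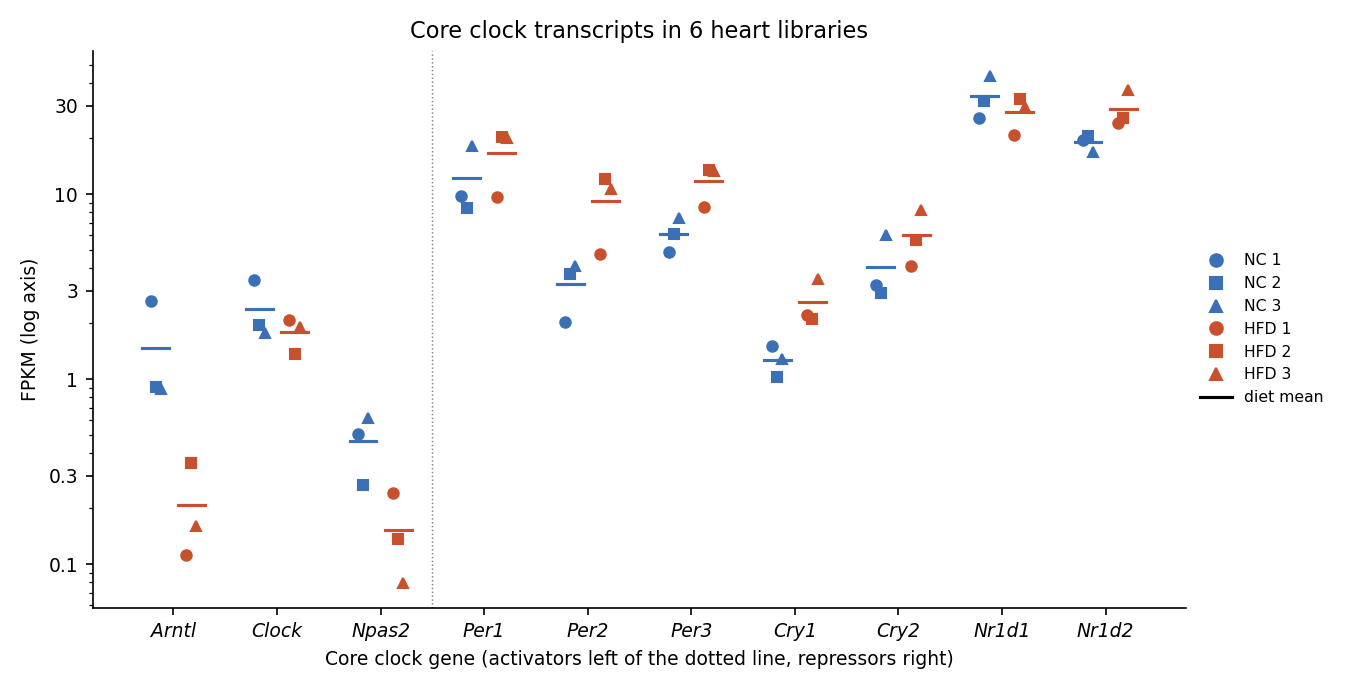
FPKM (log axis) of the 10 core clock genes in each library, NC in blue and HFD in red, with a bar at each diet mean of 3 libraries. Arntl and Npas2 are lower in all 3 HFD libraries, and Per2, Per3, Cry1 and Nr1d2 are higher in all 3, while the other 4 genes overlap.

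Arntl showed the widest proportional gap. Chow libraries measured 2.65, 0.907 and 0.879 FPKM, and high-fat libraries 0.112, 0.350 and 0.161 FPKM. NC 1 stood well above the other 2 chow libraries, and every HFD library lay below every NC library. The NC mean was 1.48 ± 1.01 FPKM and the HFD mean 0.208 ± 0.126 FPKM (SD, n = 3 each), 0.141 times as high. On the log2(FPKM + 1) scale the difference was −0.97, and −0.65 without NC 1 (exact permutation p = 0.1 with all libraries, two-sided, the smallest that 3 against 3 allow). Without a filter on low values the limma SE was 0.28 and the adjusted p = 0.984 over 22234 genes. The pseudocount of 1 FPKM understates changes at such low levels, and the difference was −2.26 with a pseudocount of 0.1.

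Npas2, the paralog of Clock that also pairs with BMAL1, was the lowest of the 10 genes. It had chow values of 0.508, 0.269 and 0.620 FPKM beside high-fat values of 0.243, 0.137 and 0.0796 FPKM. The groups did not overlap, but NC 2 and HFD 1 were close to each other. Means were 0.465 ± 0.179 and 0.153 ± 0.0828 FPKM (SD, n = 3 each), a log2 difference of −0.34 (limma without a filter, SE 0.11, adjusted p = 0.984 over 22234 genes). The HFD mean was 0.329 times the NC mean, and the log2 difference was −0.55 with a pseudocount of 0.5 and −1.15 with one of 0.1.

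Clock, the usual partner of BMAL1 in the activator dimer, separated the diets least among the activators. It measured 3.43, 1.95 and 1.78 FPKM with chow, compared with 2.10, 1.37 and 1.92 FPKM under the high-fat diet. NC 1 was again the highest library, and HFD 1 was higher than NC 2 and NC 3. The log2 fold change was −0.25 (SE 0.25, limma adjusted p = 0.9998), and it was −0.04 without NC 1.

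Per2 had the largest log2 fold change of the 8 tested genes. PER2 is a period protein that acts with CRY in the repressive complex. Its gene read 2.04, 3.68 and 4.07 FPKM under chow, while high-fat libraries gave 4.77, 12.1 and 10.7 FPKM. HFD 2 and HFD 3 were far above all chow libraries, and HFD 1 was only slightly above NC 3. The HFD mean was 2.81 times the NC mean (log2 fold change 1.20, SE 0.32, limma unadjusted p = 0.00285 and adjusted p = 0.881).

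Per3, a period gene that is not needed for rhythmicity itself, had a library order identical to that of Per2. It had chow values of 4.84, 6.10 and 7.39 FPKM beside high-fat values of 8.54, 13.6 and 13.4 FPKM. In both genes the order from high to low was HFD 2, HFD 3, HFD 1, NC 3, NC 2 and NC 1. The HFD mean was 1.94 times the NC mean (log2 fold change 0.84, SE 0.25, limma unadjusted p = 0.0052 and adjusted p = 0.9998).

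Per1, a period gene that also responds directly to glucocorticoids and to cyclic AMP signalling, had another order of libraries. It measured 9.78, 8.44 and 18.3 FPKM with chow, compared with 9.70, 20.3 and 20.2 FPKM under the high-fat diet. Its libraries fell at 2 levels that crossed the diets, with NC 3, HFD 2 and HFD 3 high and NC 1, NC 2 and HFD 1 low. The log2 fold change was 0.43 (SE 0.33, limma adjusted p = 0.9998), and it ranged from 0.23 without NC 2 to 0.76 without HFD 1.

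The cryptochromes bind the activator dimer directly and are its strongest inhibitors. Cry1 read 1.51, 1.02 and 1.28 FPKM under chow, while high-fat libraries gave 2.23, 2.11 and 3.48 FPKM. Its chow values lay close together and all HFD values were above them. The HFD mean was 2.05 times the NC mean (log2 fold change 0.65, SE 0.23, limma unadjusted p = 0.0149 and adjusted p = 0.9998). Cry2 overlapped and had chow values of 3.23, 2.93 and 6.01 FPKM beside high-fat values of 4.08, 5.65 and 8.25 FPKM, with NC 3 above HFD 1 and HFD 2. Its log2 fold change of 0.48 (SE 0.29, limma adjusted p = 0.9998) ranged from 0.25 without HFD 3 to 0.74 without NC 3.

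The REV-ERB genes were the most abundant of the 10 and had diet differences of unlike sign, a contrast between the 2 genes that was not tested. Nr1d1 measured 25.8, 32.0 and 43.4 FPKM with chow, compared with 20.8, 32.6 and 29.7 FPKM under the high-fat diet, and was the only repressor with a lower HFD mean. Its log2 fold change was −0.27 (SE 0.25, limma adjusted p = 0.9998) and came to −0.08 without NC 3 or HFD 1. Nr1d2 read 19.6, 20.6 and 16.9 FPKM under chow, while high-fat libraries gave 24.4, 25.6 and 36.5 FPKM. Chow values of Nr1d2 were tight (19.0 ± 1.92 FPKM, SD, n = 3) and all HFD values exceeded them (28.8 ± 6.69 FPKM, SD, n = 3). Its log2 fold change was 0.56, with a limma SE of 0.22, an unadjusted p of 0.0275 and an adjusted p of 0.9998.

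Nr1d1 shares exon sequence with a neighbour. By GENCODE annotation of mm10 it lies on chromosome 11 from 98767932 to 98775333 on the minus strand, and 263 of its 3077 exon bases (8.55%) overlap exons of Thra, the thyroid hormone receptor alpha gene on the opposite strand. No source used here says whether counting used strand, so reads of that stretch may not be told apart. Thra itself had chow values of 23.9, 15.4 and 31.3 FPKM beside high-fat values of 12.5, 18.3 and 24.3 FPKM. Per1 lies on the same chromosome from 69095217 to 69109960, and Per2 (91415982 to 91459324) and Npas2 (39193731 to 39363236) lie on chromosome 1. Arntl lies on chromosome 7 from 113207465 to 113314126, and Cry1 on chromosome 10 from 85131700 to 85185064. Clock lies on chromosome 5 (76209868 to 76304792), Per3 on chromosome 4 (151003652 to 151044665), Cry2 on chromosome 2 (92403646 to 92434043) and Nr1d2 on chromosome 14 (18204054 to 18239127). All 10 genes are protein-coding. Exons of Arntl overlap the antisense gene Gm45355 over 33 bases, and exons of Cry2 overlap D930015M05Rik, on the opposite strand, over 295 bases.

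**Figure D2:**
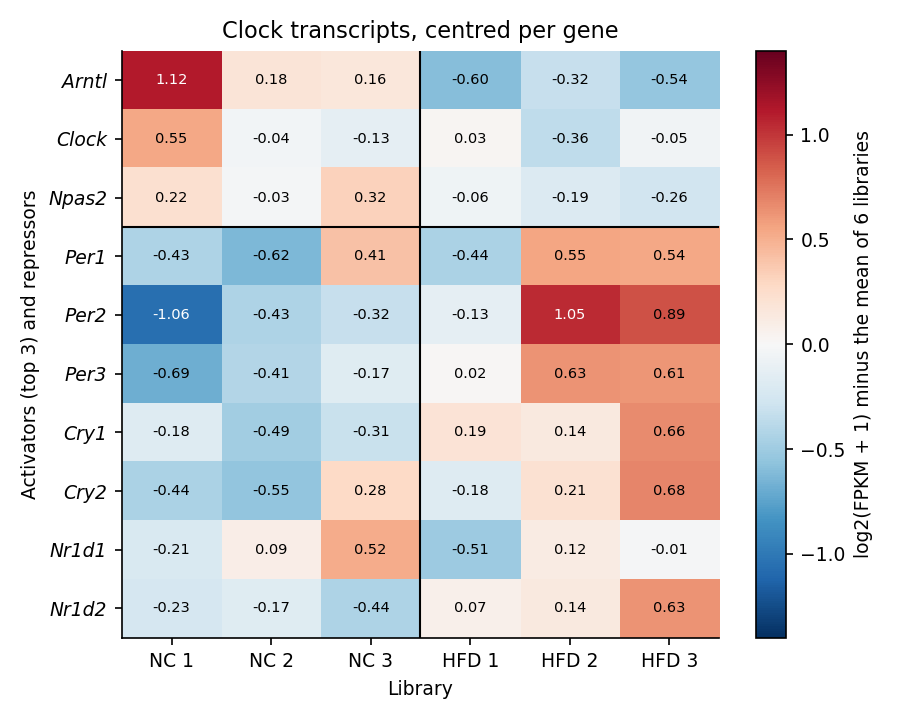
log2(FPKM + 1) of each core clock gene (rows) in each library (columns) after subtracting that gene's mean over the 6 libraries, red above and blue below it. NC 1 has the highest Arntl (1.12 above the mean) and the lowest Per2 (−1.06), and HFD 2 has the highest Per2 (1.05) with Arntl below its mean (−0.32).

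By library, the distance between the 2 arms varied within each diet as well as between diets. The mean log2(FPKM + 1) of the 3 activators was 1.54, 0.95 and 1.03 with chow and 0.70, 0.62 and 0.62 with the high-fat diet. That of the 7 repressors was 2.87, 2.97 and 3.33 with chow and 3.19, 3.74 and 3.91 with the high-fat diet. Activators did not overlap between diets, whereas the repressor mean of NC 3 exceeded that of HFD 1.

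The activator mean minus the repressor mean came to −1.33, −2.02 and −2.30 for the chow libraries and −2.49, −3.12 and −3.28 for the high-fat ones. The diets did not overlap, but HFD 1 lay closer to NC 3 than NC 3 lay to NC 1. Diet means were −1.89 ± 0.50 on NC and −2.96 ± 0.42 on HFD (SD, n = 3 each), a difference of −1.08, for which no test is given because the genes were chosen with earlier results of these data known. Leaving out NC 1 gave −0.80 and leaving out HFD 1 gave −1.31. A pseudocount of 0.1 gave −1.92, and medians in place of means over the genes of each arm gave −1.76.

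**Figure D3:**
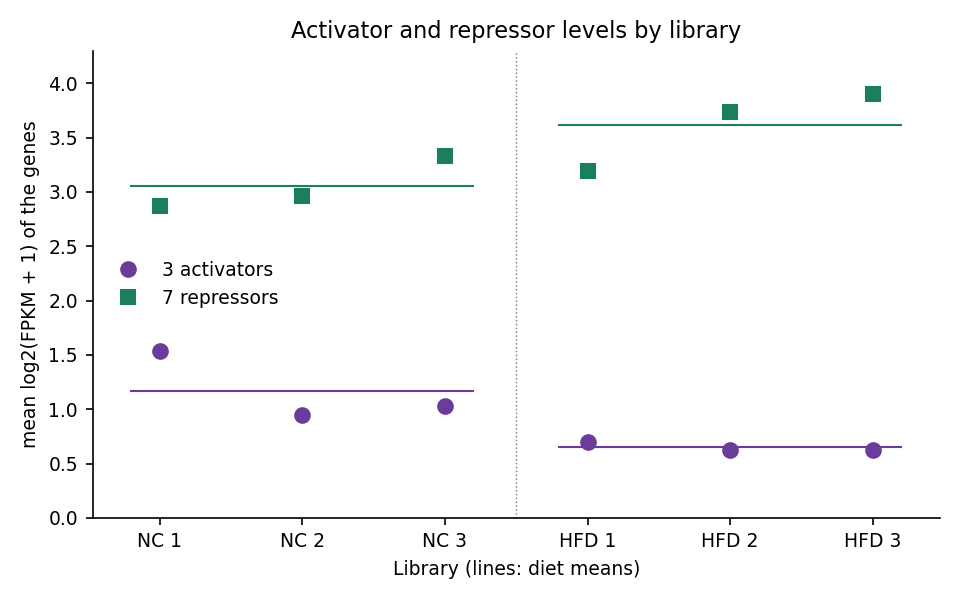
Mean log2(FPKM + 1) of the 3 activators (circles) and the 7 repressors (squares) in each library, with lines at the diet means. Activators are at 0.62 to 0.70 in the HFD libraries and at 0.95 to 1.54 in the NC libraries, and the repressor values of NC 3 (3.33) and HFD 1 (3.19) cross.

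The order of levels among the 10 genes was similar on both diets. On NC it ran from Nr1d1 (33.7 FPKM) through Nr1d2 (19.0), Per1 (12.2), Per3 (6.11), Cry2 (4.06), Per2 (3.26), Clock (2.39), Arntl (1.48) and Cry1 (1.27) to Npas2 (0.465). On HFD it ran from Nr1d2 (28.8 FPKM) through Nr1d1 (27.7), Per1 (16.7), Per3 (11.8), Per2 (9.18), Cry2 (5.997), Cry1 (2.61), Clock (1.80) and Arntl (0.208) to Npas2 (0.153). Ranges of neighbours in the NC order did not overlap for Nr1d1 and Nr1d2, for Per1 and Per3, and for Cry1 and Npas2. On HFD they did not overlap for Nr1d1 and Per1, for Cry2 and Cry1, for Cry1 and Clock, and for Clock and Arntl. Cry1 thus lay below Clock on NC and above it on HFD.

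Beyond the 10, 40 further genes of the clock machinery were counted, of which 38 were tested. None passed the test (0 of 38 by limma with adjustment over all genes), 1 had an unadjusted p below 0.05 (3.62% of all tested genes did), and 30 of the 38 had a positive log2 fold change (46.9% of all tested genes did), with a median of 0.16. HFD values lay wholly above NC values in 3 of the 38 (3.25% of tested genes) and wholly below in 2 (4.88%). All 8 output and accessory transcription factors had a positive value (median 0.39), and the diets overlapped in all 8. Tef, an output factor that binds D-boxes, measured 34.8, 42.3 and 52.8 FPKM with chow, compared with 44.1, 80.8 and 72.2 FPKM under the high-fat diet (log2 fold change 0.56, SE 0.26, limma unadjusted p = 0.0496 and adjusted p = 0.9998). Hlf, of the same family, had a log2 fold change of 0.51 (SE 0.29). Ciart, a repressor of the activator dimer, was at 2.25 FPKM in NC 1 and at 7.19 to 12.0 FPKM in the other 5 libraries (log2 fold change 0.65, SE 0.39).

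Rora encodes a ROR receptor, which acts on the elements shared with REV-ERB. It read 1.71, 1.87 and 1.54 FPKM under chow, while high-fat libraries gave 2.42, 2.21 and 2.48 FPKM, without overlap (log2 fold change 0.31, SE 0.21, limma adjusted p = 0.9998). Rorb, of the same family, stayed under 0.1 FPKM in every library. The kinases that phosphorylate clock proteins were near 0, 5 of 8 positive with a median of 0.03, from −0.17 for the casein kinase 2 subunit gene Csnk2b to 0.11 for Csnk2a2 and 0.09 for Csnk1d, the main PER kinase.

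Ubiquitin ligases and peptidases of clock proteins were positive in 6 of 7 tested genes (median 0.25). The largest difference was that of Fbxw11 (log2 fold change 0.52, SE 0.28), a ligase of PER proteins, and the peptidase gene Usp7 had a log2 fold change of 0.23 (SE 0.21). Of 13 partners and corepressors 9 were positive (median 0.14). The deacetylase gene Sirt1 had chow values of 2.94, 1.84 and 2.32 FPKM beside high-fat values of 3.13, 3.73 and 3.93 FPKM (log2 fold change 0.46, SE 0.22), and the acetyltransferase gene Ep300 had a log2 fold change of 0.44 (SE 0.24). In Timeless the log2 fold change of 0.52 (SE 0.28) went with high values in HFD 1 and HFD 2 (11.2 and 14.0 FPKM), while HFD 3 (5.82 FPKM) lay below the chow libraries (6.401 to 6.78 FPKM).

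**Figure D4:**
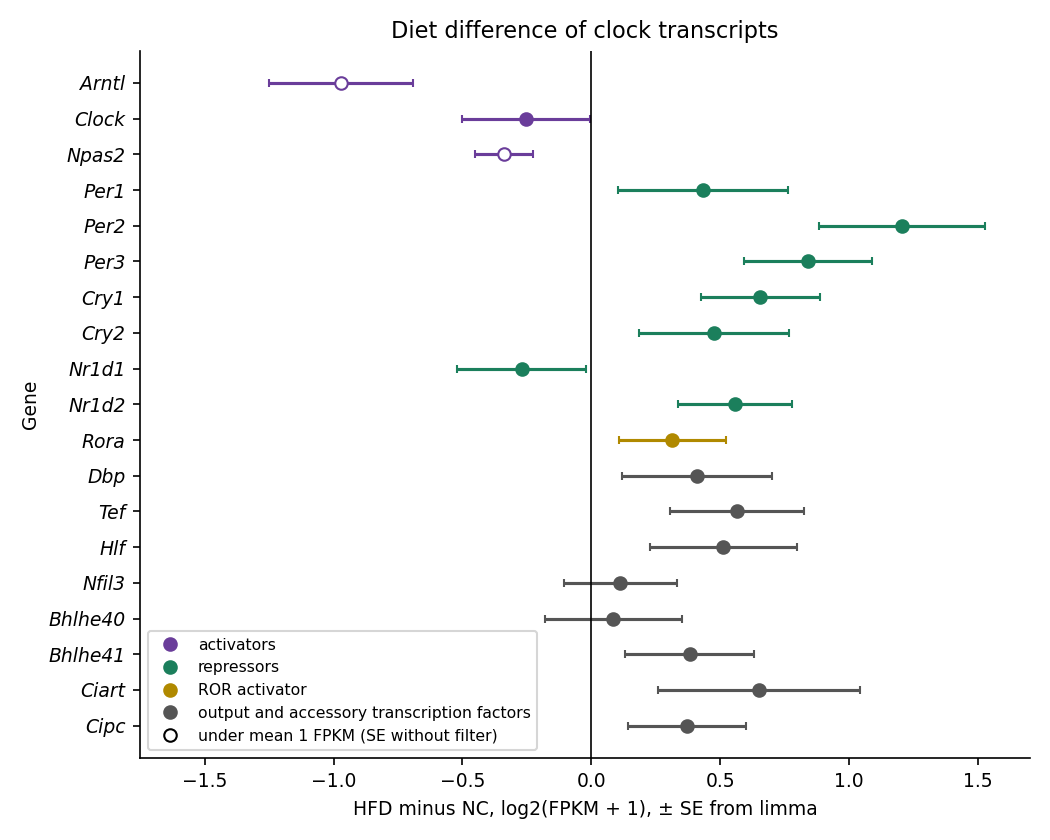
HFD minus NC on the log2(FPKM + 1) scale with limma standard errors, for the 10 core genes, Rora and the output factors; open circles are genes under a mean of 1 FPKM, with the error from the fit without a filter. Activators and Nr1d1 lie left of 0, from −0.97 for Arntl to −0.25 for Clock, and all other genes drawn lie right of it, up to 1.20 for Per2.

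The genes closest in pattern to Arntl, Per2 and Nr1d1 were found from the root mean square difference between centred log2(FPKM + 1) values over the 6 libraries, a description with no test. Only genes averaging 1 FPKM or more were searched, which leaves out Npas2, and outside the 10 predicted and unnamed gene models were left out. Arntl itself spread by 0.584 around its mean, and the 5 nearest genes outside the 10 were Spon2 (0.182), Fabp7 (0.215), Mest (0.220), Mthfsl (0.230) and H2-Aa (0.232). Among the 10 its nearest mirror image was Per3 (0.335), close to the nearest outside them, Slc15a2 (0.336), Zfp946 (0.341) and Cys1 (0.343). Per2 spread by 0.743, and Per3 (0.268) was nearer to it than any gene searched outside the 10, of which Tmem82 (0.304), Slc20a1 (0.340), Lama5 (0.350), Tef (0.352) and Kcnv2 (0.357) came next.

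The mirror image of Per2 was approached most by Lsmem2 (0.341), Nppb (0.3797), the gene of B-type natriuretic peptide, and Nme5 (0.390). Nr1d1 spread by only 0.316, so that distances to it are smaller. Its nearest genes were Selenbp2 (0.0521), Tpcn2 (0.0668), Sh3bp1 (0.0802), Mus81 (0.0834) and Parp16 (0.0873), and its nearest mirror images Ankle2 (0.0656), Mitd1 (0.0704) and Stom (0.0974).

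Structural noncoding RNAs followed the same division of libraries as Per1. The summed level of 5 of them (Rn7s1, Rn7s2, Rn7sk, Rmrp and Rpph1) was 229, 180 and 900 FPKM under chow and 184, 830 and 1705 FPKM on HFD. Per1, Cry2 and Usp2 all had NC 3, HFD 2 and HFD 3 as their 3 highest libraries, as did Rn7s1, and Usp2, a ubiquitin peptidase under clock control, had the same full library order as Rn7s1. Rmrp, another of the 5, shared these 3 highest libraries but had a different full order. How many of all genes had either pattern was not counted. The part of these RNAs in the levels of Per1, Cry2 and the other repressors was not tested. The structural RNA sum of HFD 1 lay between those of NC 1 and NC 2, while its summed FPKM over all genes was lower (576334 against 739406 and 694956). In HFD 1 Arntl was at 0.112 FPKM against 2.65 and 0.907 FPKM in NC 1 and NC 2, Per2 at 4.77 against 2.04 and 3.68 FPKM, Per3 at 8.54 against 4.84 and 6.10 FPKM, and Cry1 at 2.23 against 1.51 and 1.02 FPKM. Npas2 was at 0.243 against 0.508 and 0.269 FPKM, Cry2 at 4.08 against 3.23 and 2.93, and Nr1d2 at 24.4 against 19.6 and 20.6. Nr1d1, unlike the other repressors, was lower than both, at 20.8 against 25.8 and 32.0 FPKM. Per1, at 9.70 FPKM, and Clock, at 2.10 against 3.43 and 1.95 FPKM, lay between the 2 chow libraries. HFD 1 is a single library, in which several mitochondrial genes were listed at 0, and these differences were not tested.

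**Figure D5:**
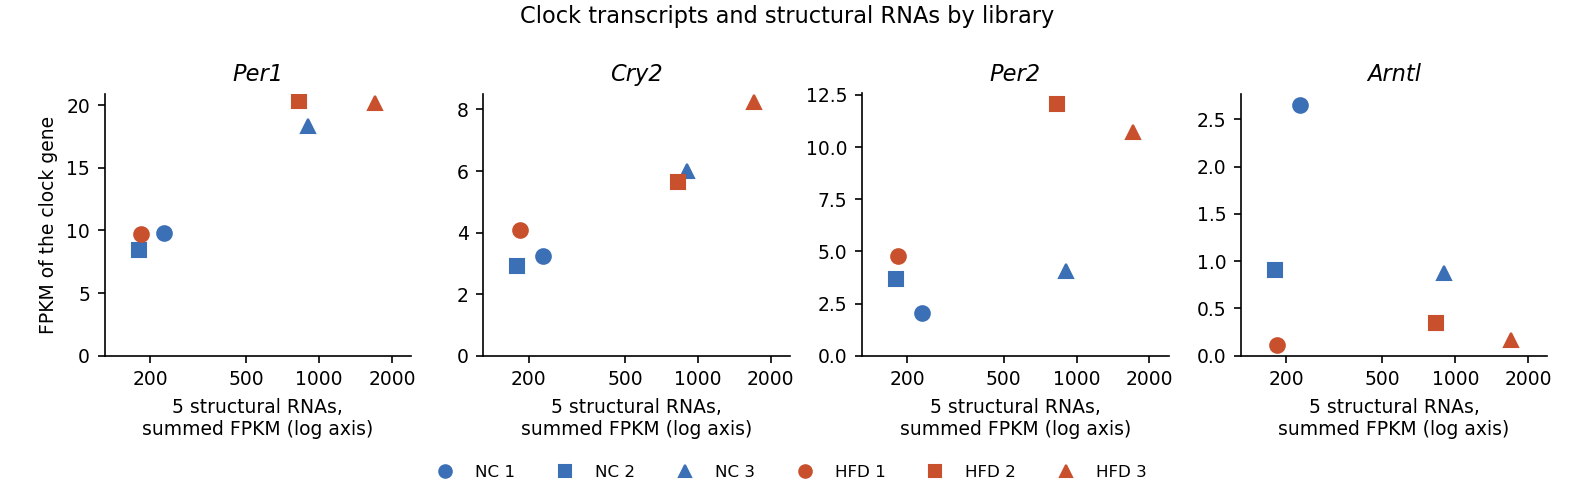
FPKM of Per1, Cry2, Per2 and Arntl (linear axes from 0) against the summed FPKM of 5 structural RNAs (log axis), each point a library, NC in blue and HFD in red. Per1 is at 8.44 to 9.78 FPKM in the 3 libraries with sums of 180 to 229 and at 18.3 to 20.3 FPKM in the 3 with sums of 830 to 1705, whereas the lowest 3 values of Arntl are those of HFD.

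Cell type markers of the heart were present in all libraries. Summed cardiomyocyte markers ranged from 27516 to 36552 FPKM on NC and from 24604 to 27380 FPKM on HFD. Of these markers 9 of 10 were lower on HFD, where 53.1% of all tested genes were. Macrophage and leukocyte markers were lower in 8 of 8 tested genes (210 to 312 FPKM under chow and 153 to 198 on HFD in sum). Fibroblast markers were lower in 9 of 10 (430 to 772 and 344 to 655 FPKM). Endothelial markers were higher in 8 of 10 (454 to 509 and 459 to 666 FPKM), where 46.9% of all tested genes were. Atrial markers varied widely within each diet (556 to 14509 and 550 to 7598 FPKM), as did adipocyte (22.2 to 84.4 and 22.3 to 77.3 FPKM) and erythroid markers (2025 to 8294 and 1241 to 13372 FPKM). Of 10 skeletal muscle markers 9 were listed, with sums of 1531 to 1948 FPKM on NC and 1266 to 1588 FPKM on HFD. Among them Myh1 and Myh2, which encode adult fast myosins, were at 0.03 FPKM or below throughout. In a bulk sample fewer cells of a type and less RNA per cell cannot be told apart, and the part of cell composition in the clock values was not tested.

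Inputs that are known to act on Per genes were also read. Glucocorticoid response genes were positive in 10 of 12 tested genes (46.9% of all tested genes were), with a median log2 fold change of 0.45. At an unadjusted p of 0.05, 3 of the 12 were higher (1.32% of tested genes), and the same number lay wholly above NC values (3.25%), with Zbtb16 at 0.712, 0.855 and 1.91 FPKM under chow and 3.66, 4.46 and 7.22 FPKM on HFD, and Fkbp5 at 3.05, 1.38 and 2.02 against 4.55, 4.66 and 6.35 FPKM. Immediate early genes, several of which share cyclic AMP inputs with Per1, were negative in 10 of 11 (53.1% of all tested genes were), with a median of −0.76. At an unadjusted p of 0.05, 7 of the 11 were lower (2.3% of tested genes), and 7 lay wholly below NC values (4.88%), with Fos at 32.0, 44.8 and 69.6 FPKM under chow and 4.598, 10.3 and 19.0 FPKM on HFD. None of the tested genes of either list passed (smallest limma adjusted p = 0.352, for Zbtb16 and Fos). Their part in the clock values was not tested.

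Over all 11456 tested genes, 0 passed an adjusted p of 0.05 with limma, while 415 (3.62%) had an unadjusted p below 0.05, 151 of them higher and 264 lower on HFD. After scaling every library to the same sum these became 450 higher and 160 lower, and the median gene moved by 0.11 on the log2 scale. With 2 other scalings more genes stayed lower than higher. Median-of-ratios scaling gave 238 higher and 328 lower, and quantile normalization gave 252 higher and 321 lower. All 10 core genes kept their direction under equal-sum scaling, and each kept it in every other setting that gave it a value. Summed FPKM ranged from 576334 in HFD 1, where several mitochondrial genes were listed at 0, to 739406 in NC 1, and the read depth is unknown, so the counting error of low genes such as Arntl and Npas2 cannot be given.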

How the data were processed

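Heart mRNA libraries of the 2 diets were compared from FPKM values that the authors deposited, 1 column per library. Per the submitters' processing notes, the build was mm10 and the tools were HISAT2 2.2.1, HTSeq 0.13.5, Trimmomatic 0.38, DESeq2 1.18.1, FastQC 0.11.9 and R 3.4.1, without stated roles. No source used here names the program behind the FPKM values. Symbols were matched by gene identifier for 23718 of 23808 genes.

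FPKM values are not counts. Among values under 0.3 FPKM, ratios of each library to NC 1 were searched for a shared step. Only 2.50 to 5.32% fell at the commonest one (tolerance 0.02 on the log2 scale), so whole reads were not recovered. Depth remains unknown and no counting interval is given.

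Values were transformed to log2(FPKM + 1), and fold changes, HFD minus NC on that scale, understate changes of low genes. Genes averaging 1 FPKM or more were fitted with limma 3.58.1 in R 4.3.3 (eBayes with trend, two-sided, Benjamini-Hochberg over all tested genes, threshold 0.05). The procedure was first run on simulated normal values, drawn independently for each gene. That simulation held no differences between whole libraries, so it does not show how the procedure handles those seen here. Exact permutation tests served single genes. The members and lists were chosen with earlier results of these data known. Named genes were the 10 members, up to 3 of each other clock list with the smallest p, and the 5 nearest and 3 mirrored genes in pattern, leaving out predicted models. Some genes this rule names are not reported here. Usp2, Rorb, Thra and the glucocorticoid and immediate early genes shown were named after their values were seen.

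Alternatives were other pseudocounts (0.1, 0.5), filters, scalings, eBayes settings, library weights, a replicate block and each library left out. Counts of separated members without each library were added after seeing the data. Annotation was GENCODE M21 (mm10), promoter sequences were RefSeq's (GRCm38.p6), and figures used matplotlib 3.10.9 in Python 3.11.15.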

Additional observations from a re-analysis of the deposited data

How the results depend on the processing

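No gene passed over all genes in 16 of 18 alternatives by limma. Without NC 2 there was 1, the predicted gene Gm36956, so that leaving out a library gave 0 to 1. With the replicate number as a block there were 73, 22 higher and 51 lower on HFD, 1 of them a core clock gene, Per2 (log2 fold change 1.20, adjusted p = 0.00305). Same-numbered libraries deviated together with correlations across genes of 0.193, 0.0864 and 0.275. Libraries 1 and 3 matched their own number best and library 2 did not. The labels name no pairing, so the numbers were not taken as pairs and the block is no main result. Whether same-numbered libraries shared a batch was not tested. Apart from the block, the adjusted p of Per2 ranged from 0.553 to 0.9997. No core gene reversed in any setting that gave it a value. The activator minus repressor difference of −1.08 moved to −1.92 with a pseudocount of 0.1 and to −1.76 with the median of the members, with leave-one-out values between −1.31 and −0.801. Members with HFD values wholly above NC values numbered 4 to 5, and wholly below 2 in each case, without any 1 library (5 without NC 3, which adds Cry2, and without HFD 1, which adds Per1), while 3.99 to 9.96% and 5.11 to 12.4% of all genes were so. Npas2 gave no value at a filter of 0.5 FPKM, nor did Arntl, Clock, Cry1 and Npas2 at 5 FPKM. Arntl and Npas2 were also not fitted with library weights, the replicate block or the other eBayes settings. Unknown depth limits Arntl and Npas2 most.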
